A study of Homo sapiens with 65 samples.

Results

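The comparison is of SOX17-positive endothelium with and without RUNX1 at day 12 of differentiation of human H9 embryonic stem cells towards mesoderm. It rests on the 8 of 65 libraries whose titles name day 12 and the gate SOX17+ CD34+ CD43-, 4 from the RUNX1 knockout (KO) and 4 from cells with RUNX1 (WT). Both lines carried a mCherry reporter in 1 SOX17 allele and a GFP reporter in 1 RUNX1C allele (SOX17 mCHERRY/w RUNX1C GFP/w), and the KO was in addition RUNX1 -/-, its DNA-binding domain deleted by CRISPR. The medium of both was STAPEL with BMP4, ACTIVIN A, VEGF, SCF and FGF2 on days 0 to 4, joined by SB431542 and CHIR 99021 on days 2 to 4, and with VEGF, SCF, FGF2 and IGF2 on days 4 to 8. The medium between days 8 and 12, the number of KO clones and whether replicates were separate cultures are not in the labels. P-values therefore measure a spread between libraries only. The main fit estimated it over 28 sorted libraries in 8 groups of days 7 and 12, including SOX17- and CD43+ cells, and not over the 8 compared libraries alone. The deletion cannot be told apart from any other difference between the lines.

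RUNX1 is the DNA-binding subunit of core-binding factor and works with its partner CBFB. In the embryonic aorta a subset of arterial endothelium, the haemogenic endothelium, turns on RUNX1 and converts into blood, while GFI1 and GFI1B recruit the LSD1 corepressor (encoded by KDM1A) to silence endothelial genes. CD43, encoded by SPN, appears on the first blood cells formed this way, so the CD43- gate takes cells that have not passed that step.

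The 8 libraries held 14791973 to 18867169 counts, and 1 count was worth 0.0533 to 0.0686 CPM (counts scaled to the effective library size). The gated markers were present in both genotypes. SOX17 averaged 151 CPM in KO against 166 CPM in WT, a log2 fold change of -0.14 ± 0.20 (estimate ± standard error, KO minus WT, edgeR quasi-likelihood fit). CD34 was at 0.07 ± 0.20 on the same scale. Endothelial markers such as CDH5, PECAM1 and KDR summed to 14628 to 17102 CPM in KO and 14383 to 17093 CPM in WT. Mesenchyme markers summed to 224 to 394 CPM in KO and 217 to 354 CPM in WT. The epithelial and endodermal markers EPCAM, CDH1 and AFP summed to 4.74 to 15.8 CPM in KO, highest in library 4, and 5.50 to 10.1 CPM in WT. No library exceeded 2 CPM in the sum of TNNT2 and MYH6 (heart muscle), of PAX6 and SOX1 (neural) or of POU5F1 and NANOG (pluripotent cells).

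In KO endothelium 42 genes fell and 1 rose, at an adjusted p under 0.05 among 22978 genes tested in a fit of 28 sorted libraries. These are 0.183% and 0.00435% of the genes tested, and 707 genes (3.08%) had an unadjusted p under 0.05. Regulators of the endothelial-to-haematopoietic transition (RUNX1, MYB, GFI1), the potassium channel gene KCNK17 and low-level blood transcripts such as CSF1R, SPI1 and PTPRC fell. VANGL2, a core gene of planar cell polarity, rose. Of 18 pan-endothelial genes 0 were called. KO and WT libraries did not overlap in 41 of the 43 called genes, the exceptions being P2RX1 and PTPN7. Over all genes tested, all 4 KO libraries lay below all 4 WT libraries in 1.38% and above them in 1.16%. The number of calls varied with the fit: 77 with DESeq2, 12 with limma-trend on the authors' log2 RPKM, 10 with the 8 libraries fitted alone, 96 with no filter on low counts and 28 without KO library 1. HSD17B7P2, KCNK17, SPI1, RDM1P5, MYB, PLXDC1 and VANGL2 were called in all 7 alternatives and in all 8 fits that left out 1 of the libraries, and 25 of the 43 were called in all 8 of those fits.

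**Figure D1:**
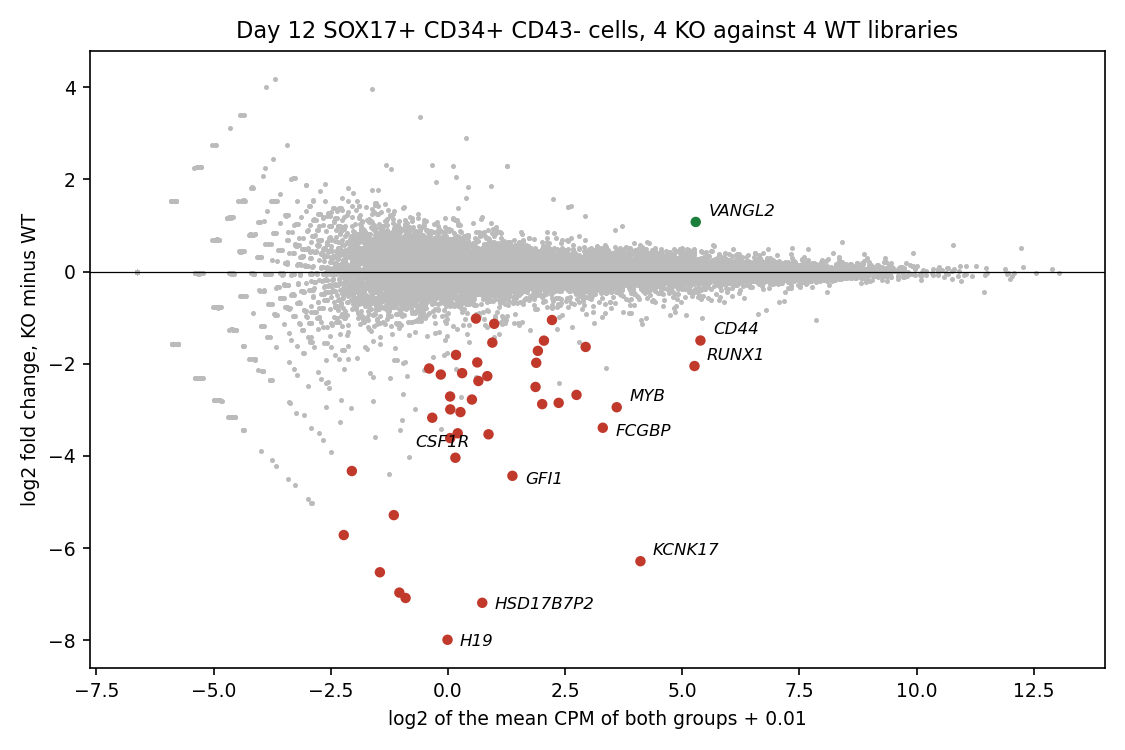
Log2 fold change, KO minus WT, against mean expression for the 22978 genes tested in day 12 SOX17+ CD34+ CD43- cells. Each point is a gene; the 42 genes called lower lie below 0 and VANGL2 is the 1 gene called higher.

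RUNX1, the targeted gene, held 19.8, 9.36, 19.1 and 11.4 CPM in KO libraries 1 to 4 and 69.8, 35.1, 52.7 and 89.3 CPM in WT libraries 1 to 4. Every KO library was below every WT library. The means were 14.9 ± 5.31 and 61.8 ± 23.2 CPM (SD, n = 4 each), a log2 fold change of -2.05 ± 0.25 with an adjusted p of 6.27e-05. Counts are per gene, so they do not show whether the remaining KO transcript held the deleted exons. With the 8 libraries fitted alone the adjusted p was 0.0669. RUNX1 lies at chr21:34787801-36004667 (GRCh38, GENCODE 29, minus strand).

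MYB (chr6:135181315-135219173) encodes a transcription factor needed for definitive blood formation. It held 2.87, 2.19, 2.61 and 3.49 CPM in the KO libraries and 16.9, 16.2, 22.7 and 30.03 CPM in the WT libraries. The KO values lay close together and under the lowest WT library. The log2 fold change was -2.94 ± 0.25, with an adjusted p of 3.65e-08.

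GFI1 (chr1:92474762-92486876) encodes the repressor that works with LSD1. It held 0.191, 0.296, 0.266 and 0.125 CPM in KO and 2.00, 3.51, 9.02 and 5.28 CPM in WT. The 4 KO libraries together had 15 counts against 322 in WT, and the groups lay apart. The log2 fold change was -4.43 ± 0.65, with an adjusted p of 0.000484, and with limma-trend the adjusted p was 0.104.

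KCNK17 (chr6:39299001-39314553) encodes a background potassium channel of the tandem-pore family. It held 0.510, 0.296, 0.746 and 0.125 CPM in KO and 37.3, 10.2, 12.9 and 75.8 CPM in WT. No KO library reached 1 CPM, while WT libraries spread widely, with library 2 lowest and library 4 highest. The log2 fold change was -6.28 ± 0.80, with an adjusted p of 8.63e-05. The nearby genes KIF6 (-1.49 ± 0.34, adjusted p = 0.0727) and KCNK5 (-0.60 ± 0.24) were not called, although the groups of KIF6 did not overlap.

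Compared per length, as mean RPKM ± SD in WT, the level was 15.3 ± 13.7 for KCNK17, 3.87 ± 1.45 for RUNX1, 3.81 ± 1.14 for MYB and 1.46 ± 0.893 for GFI1. By group mean and SD, levels of RUNX1 and MYB did not differ beyond their spread, and the wide spread of KCNK17 reached down to them. Levels per length were not compared within single libraries. In KO the mean RPKM was 0.930 ± 0.323 for RUNX1, 0.495 ± 0.0986 for MYB, 0.187 ± 0.118 for KCNK17 and 0.0647 ± 0.0227 for GFI1. KCNK17 thus moved from the first place per length in WT to the third in KO.

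**Figure D2:**
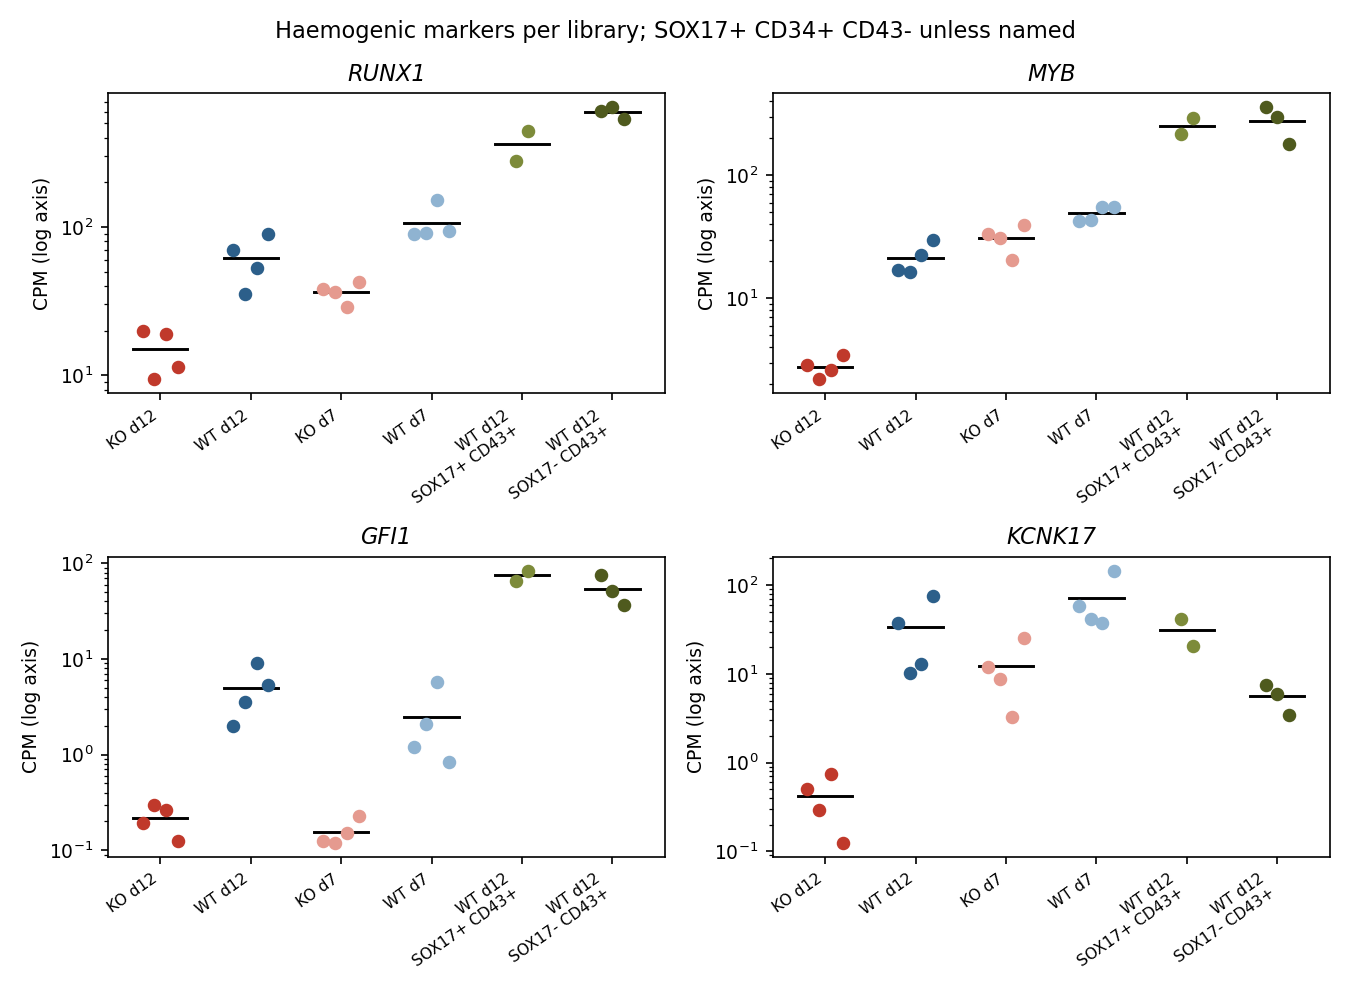
CPM on a log axis of RUNX1, MYB, GFI1 and KCNK17 in single libraries of the sorted groups. Points are libraries and bars are group means; for each gene the 4 day 12 KO points lie below the 4 day 12 WT points.

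The bases before the start of these genes are shown because RUNX1 binds DNA, to show where letters of its recognition sequence occur. Windows of 250 bases before the RefSeq gene start (GRCh38.p14) were searched for TGTGGT and TGCGGT on both strands. KCNK17 (chr6:39314420-39314669, minus strand) is the marker with a match, GFI1 (chr1:92486926-92487175, minus strand) and MYB (chr6:135181058-135181307, plus strand) are markers without one, and RGS18 (chr1:192158212-192158461, plus strand) is the lowered gene with 2. Sequences run 5′ to 3′ on the strand of the gene, and capitals mark matches.
KCNK17: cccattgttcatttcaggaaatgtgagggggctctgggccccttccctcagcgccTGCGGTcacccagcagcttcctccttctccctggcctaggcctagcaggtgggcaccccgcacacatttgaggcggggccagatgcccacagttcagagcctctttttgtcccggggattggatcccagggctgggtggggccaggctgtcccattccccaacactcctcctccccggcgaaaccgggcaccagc
GFI1: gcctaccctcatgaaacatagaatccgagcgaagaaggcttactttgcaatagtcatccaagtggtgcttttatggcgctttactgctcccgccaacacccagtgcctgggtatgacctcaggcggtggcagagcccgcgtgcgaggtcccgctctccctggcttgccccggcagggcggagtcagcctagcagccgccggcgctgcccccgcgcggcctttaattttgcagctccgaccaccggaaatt
MYB: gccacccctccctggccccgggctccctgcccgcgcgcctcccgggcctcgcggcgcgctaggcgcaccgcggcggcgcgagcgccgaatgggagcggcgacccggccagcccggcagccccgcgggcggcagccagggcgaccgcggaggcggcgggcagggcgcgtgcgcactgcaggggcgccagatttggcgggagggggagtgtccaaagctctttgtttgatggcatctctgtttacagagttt
RGS18: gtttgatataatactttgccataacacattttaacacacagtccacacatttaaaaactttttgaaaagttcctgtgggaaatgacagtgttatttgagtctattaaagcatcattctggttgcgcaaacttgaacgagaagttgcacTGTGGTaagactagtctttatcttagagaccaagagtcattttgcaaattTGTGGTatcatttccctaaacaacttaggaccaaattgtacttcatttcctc
The match of KCNK17 is TGCGGT, whose first base is 195 bases before the start, and those of RGS18 are TGTGGT at 102 and 52 bases. Of the 42 lowered genes 30 had a window in the RefSeq table, and 7 of these (23.3%) held a match, against 15.3% of 12535 windows of tested genes and 16.1% of all 27305 windows. JAML, LCP1, NLRP3, PI16 and PLEK were the other 5. Such a match describes letters in a window and not a site.

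Partners and relatives of RUNX1 and GFI1 gave no further call. In the RUNX family with CBFB and the CBFA2T cofactors 1 of 7 fell and 0 rose. CBFB, the partner subunit, was at -0.12 ± 0.17 and RUNX2 at 0.01 ± 0.33 on the log2 scale. RUNX3 was close to 0 in both groups, at 0.0159 CPM in KO and 0.109 CPM in WT. Of 6 genes of GFI1 and the LSD1 corepressor 1 fell. KDM1A was at -0.01 ± 0.10, and its partners RCOR1 (0.01 ± 0.10), HDAC1 (0.01 ± 0.11) and HDAC2 (-0.05 ± 0.10) were not called. GFI1B, the paralogue of GFI1, averaged 0.345 CPM in KO and 0.859 CPM in WT and was not called (-1.31 ± 0.52), although its groups did not overlap.

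Of 20 haematopoietic transcription factors 2 fell and 0 rose, with a median log2 fold change of -0.11 beside 0.00 over all genes tested. SPI1 encodes PU.1, a factor of myeloid and B cells, and held 0.0637, 0.237, 0.213 and 0.187 CPM in KO and 0.890, 1.99, 3.12 and 2.47 CPM in WT. KO libraries had 12 counts in all, and none overlapped with WT. Its log2 fold change was -3.51 ± 0.46, with an adjusted p of 0.000101. IKZF1, which encodes the lymphoid factor Ikaros, held 2.74, 1.72, 2.93 and 1.183 CPM in KO and 4.78, 6.76, 6.94 and 5.96 CPM in WT. Its groups also lay apart, with a change of -1.50 ± 0.25 and an adjusted p of 0.00329. Factors shared by endothelium and blood were not called, among them TAL1 (0.15 ± 0.13), LMO2 (0.01 ± 0.13), LYL1 (-0.12 ± 0.15), GATA2 (-0.27 ± 0.15) and MEIS1 (0.04 ± 0.14). Of 6 endothelial ETS factors 0 were called, with ETS1 at 0.11 ± 0.13 and ELK3 at 0.04 ± 0.11.

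Of 14 other genes associated with haemogenic endothelium or blood stem cells 1 fell and 0 rose (median -0.16). CD44, the hyaluronan receptor, held 23.1, 20.3, 20.8 and 23.4 CPM in KO and 48.6, 42.01, 53.8 and 103 CPM in WT. KO libraries were tightly grouped and each was below every WT library. The log2 fold change was -1.49 ± 0.28 with an adjusted p of 0.0129, which became 0.109 without WT library 4, the highest, where the change was -1.14. Leaving out KO library 1, 2 or 3 gave adjusted p of 0.0504, 0.0713 and 0.0606. MECOM (-0.18 ± 0.22), HLF (-0.13 ± 0.34), MLLT3 (-0.03 ± 0.15) and HOXA9 (-0.03 ± 0.22), known from blood stem cells, were not called. Nor was MYCN (-1.02 ± 0.25, adjusted p = 0.148).

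Some blood surface antigens fell, from levels that were low in WT. Of 18 antigens 3 fell and 0 rose (median -0.36). PTPRC, which encodes CD45, had 1 count over the 4 KO libraries and 0.222, 0.795, 2.02 and 0.411 CPM in the WT libraries. This is a ratio of 59.1 between WT and KO, with a 95% exact counting interval of 10.2 to 2376 that covers counting error only. PTPRC missed the low-count filter in the 8 day 12 libraries alone and was tested because other libraries of the fit, such as the CD43+ cells, passed it. SPN, whose product CD43 the gate excludes, held 0.382, 0.178, 0.533 and 0.311 CPM in KO and 2.00, 3.51, 2.83 and 1.58 CPM in WT. Its change was -2.78 ± 0.37, with an adjusted p of 0.000158. CD53, a leukocyte tetraspanin, averaged 0.611 and 2.46 CPM (-1.97 ± 0.39, adjusted p = 0.0191). KO and WT did not overlap in any of these antigens. Both PTPRC and CD53 lost the call without 1 of several libraries, with adjusted p up to 0.117 for PTPRC (without KO library 2) and 0.175 for CD53 (without WT library 3). CD93 (-0.08 ± 0.16) and CD37 (0.03 ± 0.14), at higher levels in this endothelium, were not called.

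Of 19 genes of blood signalling and the leukocyte cytoskeleton 3 fell and 0 rose, and 19 of 19 had a value below 0 (median -0.56, and 0.05 at day 7). Over all 22978 genes tested 11329 lay below 0 and 11576 above it at day 12. LCP1, the actin bundler L-plastin, held 3.76, 4.62, 4.42 and 2.06 CPM in KO and 7.12, 14.8, 16.4 and 8.02 CPM in WT. The groups did not overlap, and the change was -1.63 ± 0.34 with an adjusted p of 0.0336. WAS, an actin regulator of blood cells, changed by -1.81 ± 0.33 (adjusted p = 0.00716). PTPN7, a tyrosine phosphatase of blood cells, changed by -1.13 ± 0.23 (adjusted p = 0.0292), and WT library 1 lay within its KO range. CORO1A, an actin regulator, did not pass (-0.97 ± 0.21, adjusted p = 0.0558), although its groups lay apart. Without WT library 3 the adjusted p was 0.243 for LCP1, 0.0643 for WAS and 0.179 for PTPN7, and other libraries ended these calls too.

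Of 12 cytokine receptors 1 fell. CSF1R, the receptor of macrophage colony-stimulating factor, held 0.446, 0.178, 0.160 and 0.374 CPM in KO and 1.22, 4.04, 6.30 and 1.78 CPM in WT. WT library 3 was the highest, library 1 the lowest, and KO stayed under both. Its change was -3.53 ± 0.48, with an adjusted p of 0.000162. KIT, the stem cell factor receptor, averaged 222 CPM in KO and 223 CPM in WT (0.00 ± 0.17). Of 12 myeloid granule genes 11 were tested and 1 fell, LYZ (lysozyme), with -2.99 ± 0.51 and an adjusted p of 0.00345. Of 12 megakaryocyte and platelet genes 2 fell. PLEK (pleckstrin) changed by -3.61 ± 0.46 (adjusted p = 8.18e-05). RAB27B, a GTPase of granule secretion, held 0.510, 1.36, 2.45 and 0.561 CPM in KO and 6.34, 5.43, 17.98 and 6.44 CPM in WT (-2.85 ± 0.52, adjusted p = 0.00813), with WT library 3 above the rest. Without that library its adjusted p was 0.0926, and without KO library 1 or 4 it was 0.0607 and 0.0605. Of 11 erythroid genes 3 passed the filter on low counts and 0 were called.

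**Figure D3:**
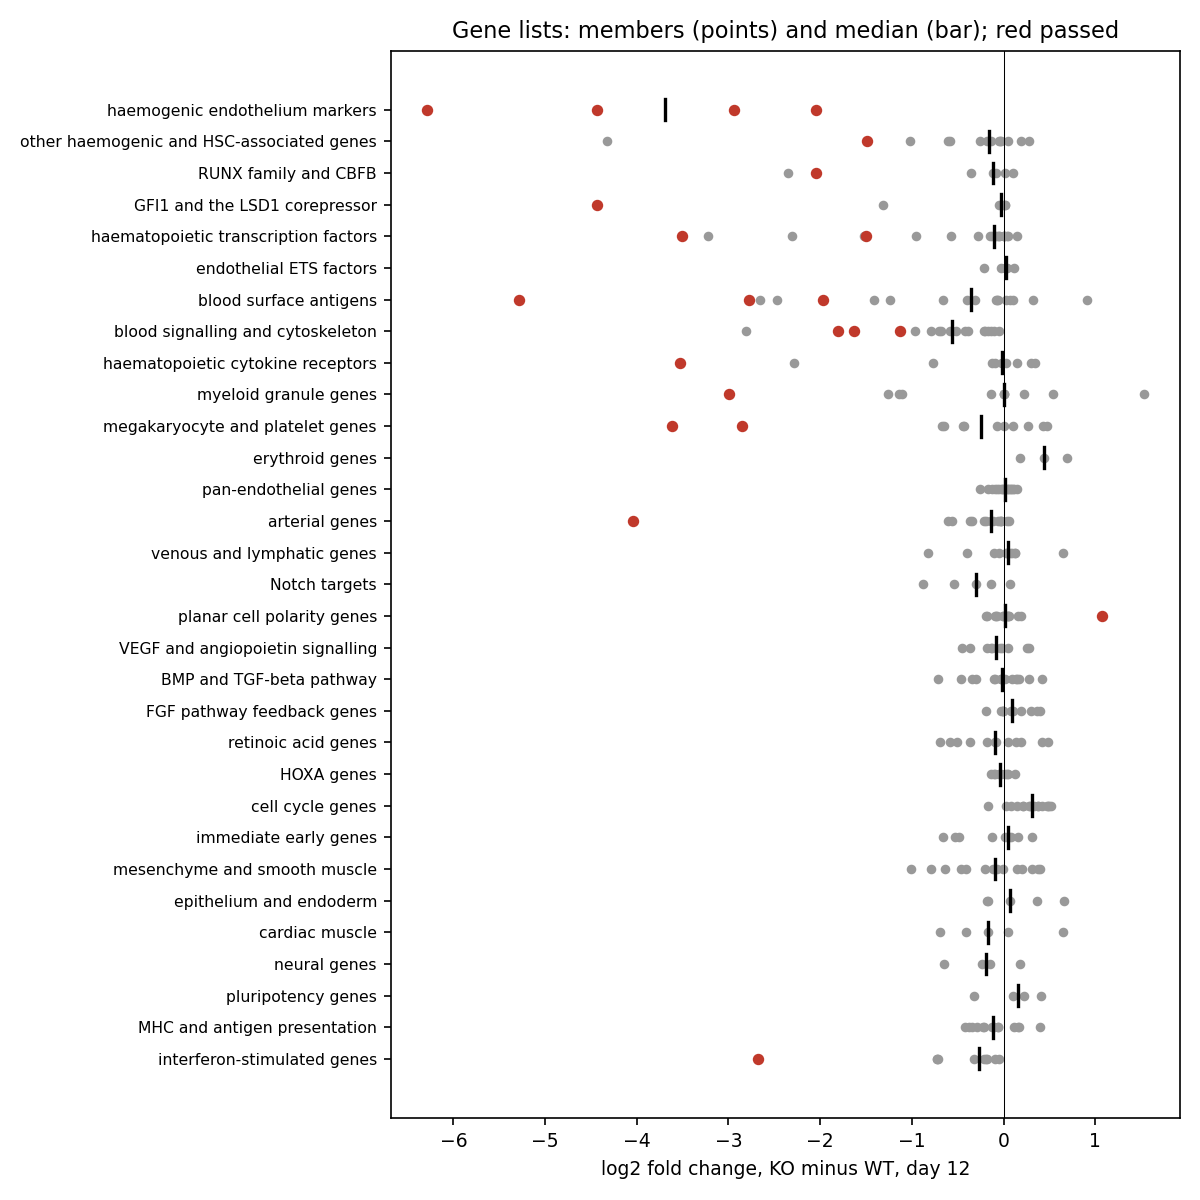
Log2 fold change, KO minus WT, at day 12 of the tested members of the 31 gene lists. Points are genes, marked where the adjusted p was under 0.05, and bars are list medians; pan-endothelial and HOXA genes lie close to 0 and called genes lie below it, apart from VANGL2.

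Further lowered genes outside the lists, named after their values were seen, are grouped here by a higher level in CD43+ blood cells than in endothelium. GAPT, JAML, RGS18 and NCF4 had 0 counts in the 4 KO libraries and 68, 63, 46 and 26 counts in WT. Against a floor of 3 counts over the KO group they were at least 23.5-fold, 21.8-fold, 15.9-fold and 8.99-fold lower. MATK, a tyrosine kinase gene, had 1 count in KO and 29 in WT, a ratio of 30.1 with a counting interval of 4.99 to 1229. Like PTPRC, these 5 genes and P2RX1 missed the low-count filter in the 8 day 12 libraries alone, which makes 7 of the 43 called genes. Libraries where they are high, such as CD43+ cells, can let them into the test. Their higher level in CD43+ cells is therefore no result about these 7. ATP2A3, a calcium pump of the endoplasmic reticulum, changed by -1.98 ± 0.32, P2RX1, an ATP-gated channel, by -2.20 ± 0.46, and NLRP3, the inflammasome sensor, by -1.54 ± 0.26. PLCH1 (-2.27 ± 0.38), APOBR (-2.23 ± 0.47), GPAT3 (-1.72 ± 0.34), PIK3R5 (-1.02 ± 0.22) and ZNF804A (-2.71 ± 0.51) fell as well. Without WT library 3 the calls of NCF4 (adjusted p = 0.104), MATK (0.187), P2RX1 (0.276), APOBR (0.407), GPAT3 (0.0950), PIK3R5 (0.354) and ZNF804A (0.117) were lost, and each was also lost without at least 1 other library. WT library 1 was the lowest WT library in 19 of the 42 lowered genes and library 3 the highest in 22.

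Levels in CD43+ cells of the same day give the scale of these transcripts. The sum of 8 blood markers (PTPRC, SPI1, LCP1, CORO1A, MPO, HBZ, PF4, GP9) was 4.17 to 7.57 CPM in KO endothelium, 11.01 to 26.8 CPM in WT endothelium and 5276 to 6749 CPM in 3 WT libraries sorted SOX17- CD34+ CD43+. Of the 42 lowered genes 31 were higher in all 3 of those libraries than in all 4 WT SOX17+ CD43- libraries of day 7, as were 31.8% of all genes tested. The 31 include the 7 genes that missed the low-count filter in the 8 day 12 libraries alone (PTPRC, GAPT, JAML, RGS18, NCF4, MATK and P2RX1). CD43+ libraries are among those that can let such genes into the test, so these 7 cannot bear on that comparison. Over the 31, the WT endothelium held a median of 1.79% of the SOX17- CD43+ level and KO 0.451%, and 21 were under 5% in WT. The same 7 genes are part of these medians and of the 21, at 0.354% (JAML) to 2.24% (P2RX1) in WT. Medians without them were not computed. BMX was the highest of the 31, at 199%. The WT share differed between genes. It was 0.389% for PTPRC, 0.618% for CSF1R, 0.749% for LCP1 and 1.14% for SPI1, against 7.71% for MYB, 9.12% for GFI1, 10.4% for RUNX1 and 17.9% for CD44. Of the level in WT SOX17+ CD34+ CD43+ cells, the share was 1.17% for PTPRC, 1.89% for CSF1R, 2.12% for LCP1 and 2.72% for SPI1. On that scale it was 8.46% for MYB, 6.62% for GFI1, 17.1% for RUNX1 and 20.1% for CD44. MPO, a granule enzyme, was at 3623 CPM in SOX17- CD43+ cells and 611 CPM in SOX17+ CD43+ cells. It averaged 0.752 CPM in WT endothelium and 0.340 CPM in KO, or 0.0207% of the SOX17- CD43+ level in WT. PRTN3, HDC, CLC and PPBP had 0 counts in both groups. WT library 3 was the highest WT library in 19 of the 31 genes and in the sum of blood markers. Fewer cells of a type and less RNA per cell cannot be told apart in sorted bulk samples, and the part of blood cells in the lowered calls was not tested.

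**Figure D4:**
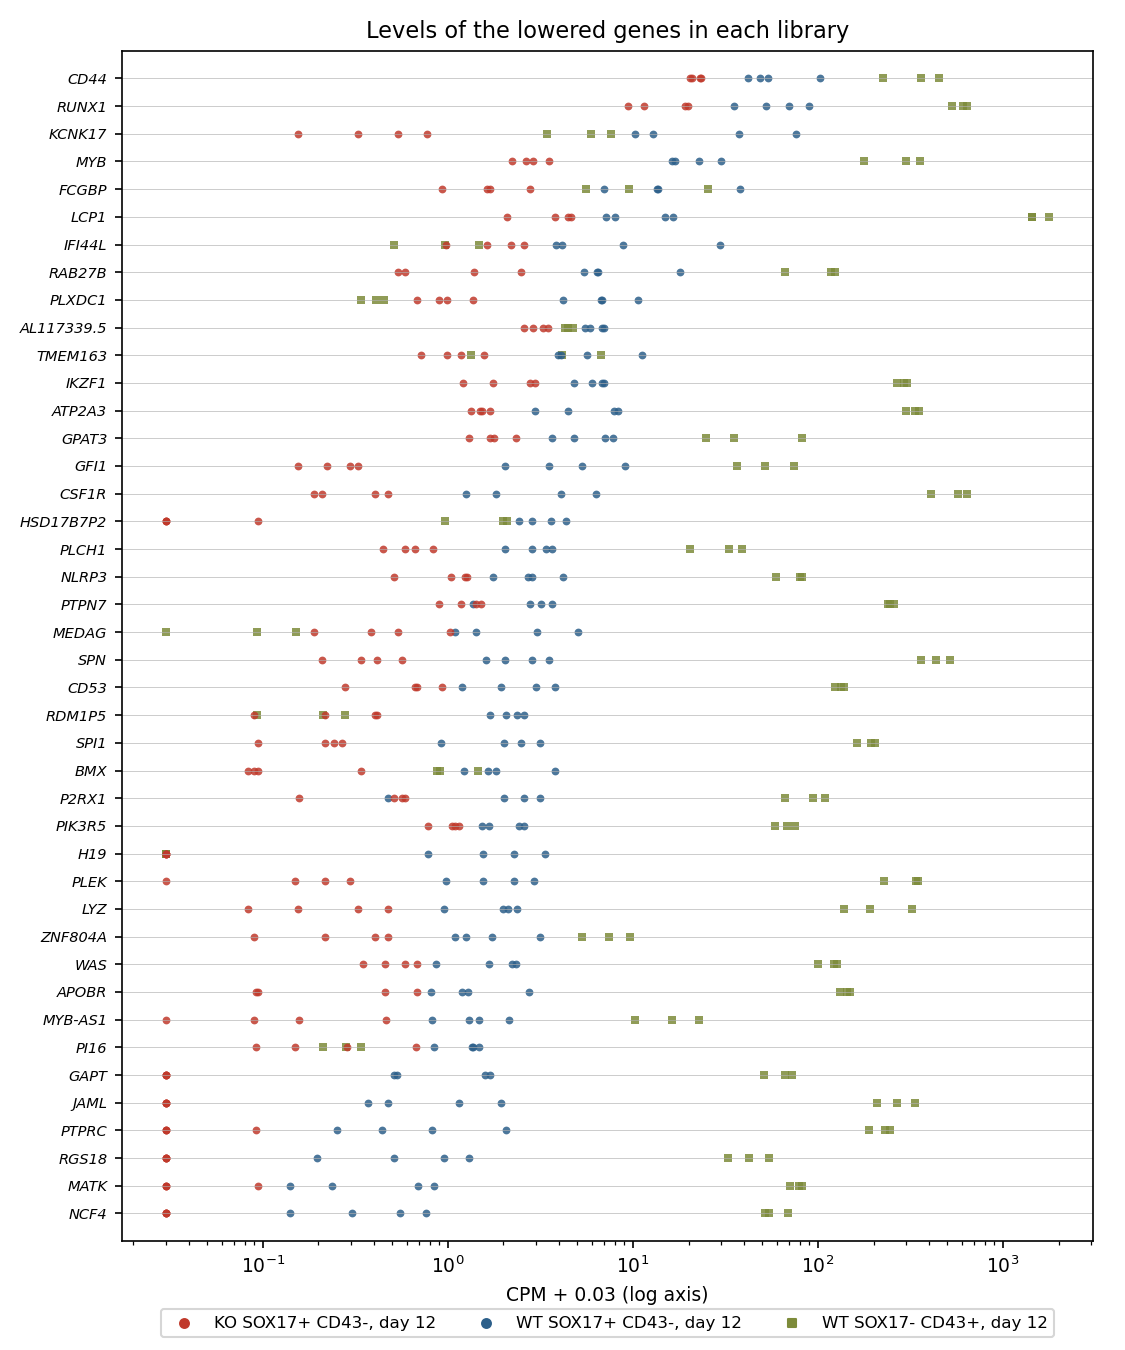
CPM on a log axis of the 42 lowered genes in each day 12 library of KO and WT SOX17+ CD43- endothelium and of WT SOX17- CD43+ cells. For the 31 genes named in the text as higher in CD43+ cells those libraries mostly lie far to the right, while the other 11 have their higher mean in WT endothelium.

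The other 11 lowered genes had a higher mean in day 12 WT endothelium than in SOX17- CD43+ cells. KCNK17 was one of them, at 34.04 against 5.64 CPM. TMEM163, another, was lower in WT endothelium than in WT SOX17+ CD43+ cells, at 6.20 against 11.2 CPM. FCGBP, an IgG Fc-binding protein, held 1.66, 1.6003, 0.906 and 2.74 CPM in KO and 13.4, 6.96, 13.7 and 37.98 CPM in WT. The groups lay apart, and the change was -3.39 ± 0.49 with an adjusted p of 0.000406. The rest, apart from IFI44L of the interferon list, were named after their values were seen. PLXDC1, a plexin-domain membrane protein first described in tumour endothelium, held 0.956, 0.652, 1.33 and 0.872 CPM in KO and 6.67, 4.17, 6.82 and 10.7 CPM in WT (-2.87 ± 0.36, adjusted p = 7.56e-05). TMEM163 (-2.50 ± 0.44), MEDAG (-2.37 ± 0.51) and PI16 (-2.10 ± 0.41) also fell. The last 2 lost the call without 1 of several libraries, with adjusted p up to 0.387 for MEDAG (without WT library 4) and 0.105 for PI16 (without KO library 2). RDM1P5 (-3.05 ± 0.49) overlaps PLXDC1 on the opposite strand, as MYB-AS1 (-3.17 ± 0.54) does MYB. The counting is not stated to use strand, so reads of such partners cannot be told apart.

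H19, an imprinted non-coding RNA, had 0 counts in KO and 3.34, 1.52, 0.751 and 2.26 CPM in WT, at least 44.6-fold lower in KO against the same floor. It had 0 counts in the 4 KO libraries of day 7 too. Its imprinted neighbour IGF2 averaged 5650 ± 2804 CPM in KO and 3972 ± 1991 CPM in WT and was not called (0.51 ± 0.37). The pseudogene HSD17B7P2 had 1 count in KO and 215 in WT, a ratio of 223 with a counting interval of 39.6 to 8850. Its value is uncertain where reads are shared with the coding gene HSD17B7, which was not called (0.11 ± 0.18). AL117339.5, which overlaps HSD17B7P2 on the same strand, changed by -1.05 ± 0.21, a call lost without 1 of several libraries (adjusted p up to 0.133, without KO library 2).

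Arterial and venous genes gave 1 call. Of 15 arterial genes 1 fell and 0 rose, 13 lying below 0 (median -0.14). BMX, a Tec-family kinase gene, held 0.0637, 0.0593, 0.0533 and 0.311 CPM in KO and 1.61, 1.19, 1.79 and 3.77 CPM in WT. The groups lay apart, with a change of -4.04 ± 0.54 and an adjusted p of 0.000159. DLL4 (-0.03 ± 0.27), GJA5 (-0.21 ± 0.52), HEY2 (-0.56 ± 0.43) and CXCR4 (-0.61 ± 0.50), which mark arteries, were not called. Of 12 venous and lymphatic genes 0 were called, with LYVE1 at -0.83 ± 0.53 and NRP2 at 0.13 ± 0.23. Of 5 tested Notch targets 0 were called, with HES4 at -0.88 ± 0.37 and NRARP at -0.30 ± 0.30. The 18 pan-endothelial genes ranged from -0.26 (SOX18) to 0.15 (EMCN), with ROBO4 at -0.17 ± 0.30 and a median of 0.01.

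VANGL2 held 58.998, 35.6, 58.6 and 58.9 CPM in KO and 24.3, 24.6, 25.2 and 26.3 CPM in WT. WT libraries were almost level and all KO libraries lay above them, library 2 the least. The log2 fold change was 1.08 ± 0.17, with an adjusted p of 0.00119. It was the 1 of 14 planar cell polarity genes called. Its paralogue VANGL1 (0.03 ± 0.12) and the pathway genes PRICKLE1 (0.15 ± 0.13) and CELSR1 (0.04 ± 0.18) were not called.

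Signalling lists gave no call: 0 of 10 for VEGF and angiopoietins, 0 of 17 for BMP and TGF-beta, 0 of 12 for FGF feedback and 0 of 12 tested for retinoic acid. Their leading members were VEGFA (-0.45 ± 0.34) and VEGFC (-0.37 ± 0.43), TGFB2 (-0.46 ± 0.34) and BMP4 (0.42 ± 0.26), IL17RD (0.39 ± 0.21) and ETV5 (0.36 ± 0.22), and ALDH1A2 (0.49 ± 0.21) and STRA6 (0.41 ± 0.20). The 11 HOXA genes had 0 calls and a median of -0.03, with HOXA10 at -0.13 ± 0.21 and HOXA11 at -0.09 ± 0.25. Of 16 cell cycle genes 0 were called and 15 lay above 0, with a median of 0.31 at day 12 and -0.24 at day 7. MKI67, a marker of dividing cells, averaged 190.2 CPM in KO and 133 CPM in WT (0.52 ± 0.26), and TOP2A was at 0.50 ± 0.25.

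Of 10 interferon-stimulated genes 1 fell, and 10 of 10 lay below 0 (median -0.26). IFI44L held 2.17, 0.948, 1.599 and 2.55 CPM in KO and 4.11, 8.81, 29.5 and 3.84 CPM in WT. WT library 3 stood above the others. The change was -2.67 ± 0.58 with an adjusted p of 0.0444, against -1.63 and 0.914 without that library and an adjusted p of 0.173 with DESeq2. Of 14 genes of antigen presentation 0 were called, with HLA-DRB1 at -0.38 ± 0.17 and CD74 at -0.34 ± 0.18. The 11 immediate early genes (EGR2 -0.66 ± 0.53, ATF3 -0.54 ± 0.48) and 14 mesenchyme and smooth muscle genes (COL1A1 -0.79 ± 0.55, POSTN -0.64 ± 0.47) gave 0 calls. The tested epithelial (KRT18 -0.18 ± 0.19, KRT8 0.08 ± 0.19), neural (TUBB3 -0.23 ± 0.35, NES 0.18 ± 0.21), cardiac and pluripotency (LIN28A 0.41 ± 0.39, DPPA4 0.10 ± 0.14) genes also gave 0.

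The same gate at day 7, with 4 KO and 4 WT libraries, gives values to set beside those of day 12. There 11 genes fell (0.0479% of those tested) and 2 rose (0.0087%). Leaving out 1 day 7 library gave 2 to 11 calls, the fewest without KO library 3 or WT library 3. The replicate numbers paired the day 7 libraries. With the number as a block in the fit of 28 libraries 18 genes were called, and 435 (221 higher, 214 lower) with those 8 libraries fitted alone. The block of 28 libraries used the title number in every group, but its pairing was checked only in SOX17+ CD43- groups. By the library numbers in the titles, number 1 of the SOX17- CD43+ cells sits among libraries numbered 2. That block may thus be wrong for some groups. Of the 43 genes called at day 12, 7 were called at day 7 without the block (RUNX1, GFI1, FCGBP, PLXDC1, HSD17B7P2, AL117339.5 and VANGL2) and 9 with it, KCNK17 and GPAT3 being added. The block with the 8 day 7 libraries alone called 18 of the 43, beside 435 of the 19914 genes that it tested. Among the 18 were MYB, CD44 (adjusted p = 0.0105), LYZ (0.0128), RAB27B (0.00245) and NLRP3 (0.0402). Several of the 43, such as H19, PTPRC, CSF1R and BMX, were not tested in that fit. The sign was the same on both days in 38 of the 43 (88.4%), against 55.9% of all genes tested.

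At day 7 RUNX1 averaged 36.6 ± 5.71 CPM in KO against 107 ± 30.05 CPM in WT, a log2 fold change of -1.54 ± 0.24. GFI1 changed by -3.94 ± 0.75 there. KCNK17 was present in all day 7 KO libraries, at 12.1, 8.87, 3.23 and 25.6 CPM, against 58.3, 41.9, 37.8 and 146 CPM in WT. Its change at day 7 was -2.50 ± 0.56 (adjusted p = 0.147). With the replicate block the adjusted p was 0.000154 in the fit of 28 libraries and 0.000146 in the 8 day 7 libraries alone. The difference between the days, -3.78 ± 1.01, did not pass in the main fit (adjusted p = 1.00), which does not use the day 7 pairs. Its value with the replicate block is not given here, so no absence of a difference can be read from this. VANGL2 held 106, 107, 92.6 and 94.6 CPM in KO and 37.7, 44.2, 29.5 and 37.8 CPM in WT, a change of 1.42 ± 0.17, again with no overlap.

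In the main fit MYB was the 1 gene of those tested (0.00435%) that passed the test for a difference in KO effect between the days. At day 7 it held 33.3, 31.1, 20.5 and 39.3 CPM in KO and 42.9, 43.5, 55.3 and 55.5 CPM in WT. These groups lay apart by a small margin, and the change of -0.66 ± 0.20 was not called (adjusted p = 0.751, or 0.280 with the replicate block). In the blocked fit of those 8 libraries alone it was -0.69 and called (adjusted p = 0.0447). The difference of the log2 fold changes, day 12 minus day 7, was -2.28 ± 0.32, with an adjusted p of 0.00256. Mean MYB went from 49.3 CPM at day 7 to 21.5 CPM at day 12 in WT, and from 31.04 to 2.79 CPM in KO. The count of genes with such a difference was 6 without day 12 WT library 1 and 3 without day 7 KO library 4. It was 8 with DESeq2, 11 with no filter on low counts and 6 with the replicate block in the fit of 28 libraries. With limma-trend it was 0, and 537 genes had an unadjusted p under 0.05 there.

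Among blood transcripts called at day 12, some were lower in WT at day 7 and others were already near their day 12 WT level. LYZ averaged 2.16 CPM in WT at day 7 and 1.82 CPM at day 12, ATP2A3 6.09 and 5.88 CPM, and SPN 1.91 and 2.48 CPM. In KO, SPN averaged 1.59 CPM at day 7 and 0.351 CPM at day 12, and ATP2A3 6.58 and 1.48 CPM. The difference in KO effect between the days did not pass for SPN (adjusted p = 0.162) or ATP2A3 (adjusted p = 0.188). PTPRC had 1 count in the 8 libraries of day 7. CSF1R held 0.378, 0.536, 0.677 and 0.518 CPM in KO and 0.501, 0.616, 0.480 and 0.361 CPM in WT (0.09 ± 0.60), with overlap, and its difference between days had an adjusted p of 0.555. SPN was at -0.25 ± 0.30 on the log2 scale at day 7, SPI1 at -0.70 ± 0.36 and BMX at -0.53 ± 0.65, none of them called. P2RX1 was above 0 there, at 1.27 ± 0.41 (adjusted p = 0.877), and was called as higher in KO in the blocked fit of the day 7 libraries alone (adjusted p = 0.0412).

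**Figure D5:**
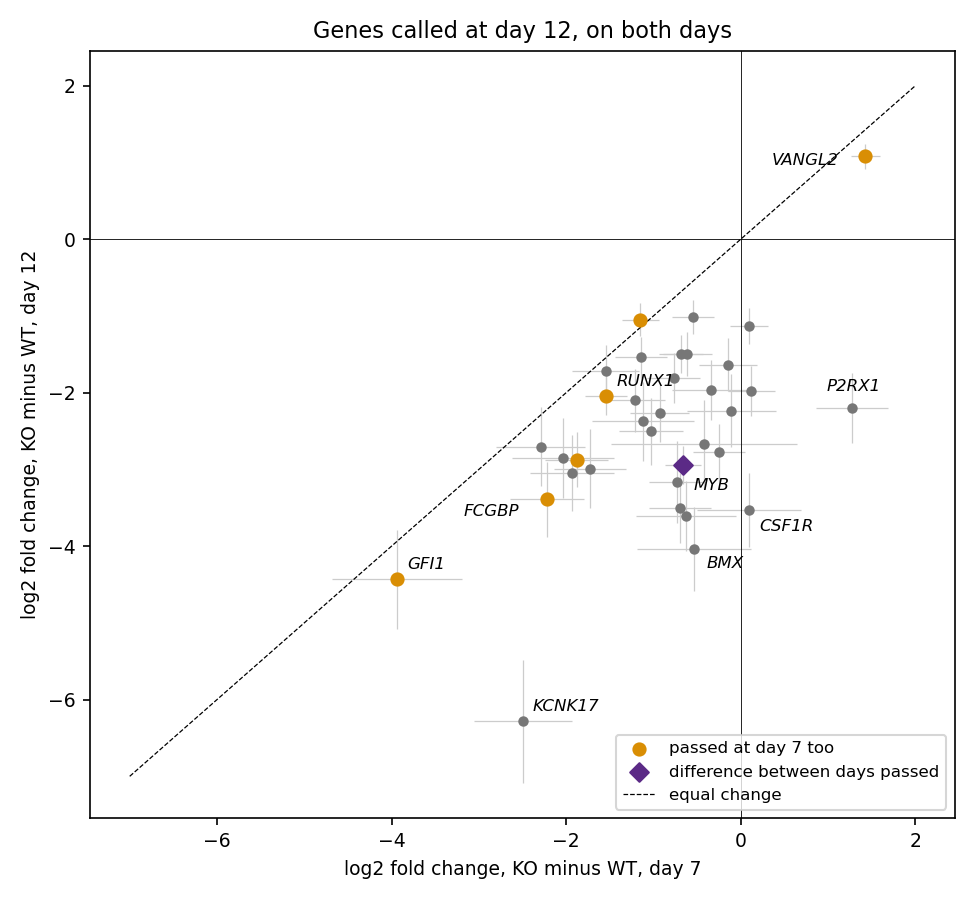
Log2 fold change, KO minus WT, at day 12 against day 7 for the genes called at day 12 with more than 3 counts in KO, with standard errors as bars. The dashed line marks equal change; MYB, whose difference between the days passed, lies below it at -2.94 against -0.66.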

How the data were processed

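RNA was sequenced from sorted H9-derived cells (total RNA, TruSeq). The authors deposited raw fragment counts per gene; per the submitters' processing notes they used cutadapt 1.18, featureCounts and R 3.2.2 with GRCh38. The aligner is not named in those notes or the labels. A deposited table of TMM-normalised log2(RPKM + 1) values, also by the authors, was used for levels per length and for limma-trend. Of 58302 gene identifiers 58039 were named from GENCODE 29. Counts were tested with edgeR 4.0.16 (TMM, filterByExpr with a minimum count of 10 and total of 15, quasi-likelihood F-test, Benjamini-Hochberg adjustment over 22978 genes, threshold 0.05) in 8 groups of 28 sorted libraries. All adjusted p-values and standard errors come from this fit unless another tool is named. Alternatives were DESeq2 1.42.0, limma 3.58.1, other scaling, no filter, the 8 libraries alone, a replicate block and leaving out each library (R 4.3.3). The pipeline was tested on simulated data. Members and gene lists were chosen with earlier results of these data known. Genes were named by a rule: the markers and gated genes, up to 5 called or 2 uncalled members of each list, and called genes outside the lists at a mean log2 CPM of at least 3; genes beyond it were named as context or after their values were seen. At day 7, same-numbered KO and WT libraries deviated together (correlations 0.189, 0.404, 0.260 and 0.345, all above 0.1), so those numbers were taken as pairs. No replicate pair agreed within sampling noise.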

Additional observations from a re-analysis of the deposited data

Results flagged for a closer look

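Within groups of 4 libraries, 6 of 81 tested groups had 1 library far from the others. A chance rate of about 1 in 20 does not hold for groups with a single count, which are always flagged. The 6 are therefore not weighed against that rate. RAB27B was 17.98 CPM in WT library 3 and 5.43 to 6.44 CPM in the others. VANGL2 was 35.6 CPM in KO library 2 and 58.6 to 58.998 CPM in the others. BMX was 0.311 CPM in KO library 4 and 0.0533 to 0.0637 CPM in the others. HSD17B7P2 and MATK were 0.0637 CPM in KO library 1, and PTPRC 0.0623 CPM in KO library 4, each a single count beside 0 in the rest. MYB differed between the days by a test of the difference itself: its KO effect of -2.94 at day 12 and -0.66 at day 7 gave a difference of -2.28.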

How the results depend on the processing

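No called gene changed direction. Among uncalled genes named in the text, 8 changed sign without 1 library: ELK3 went from 0.04 to -0.04, NRARP from -0.30 to 0.02 and HOXA11 from -0.09 to 0.05 without WT library 4, ATF3 from -0.54 to 0.02 without WT library 3, TUBB3 from -0.23 to 0.08 without WT library 2, LIN28A from 0.41 to -0.12 and DPPA4 from 0.10 to -0.10 without KO library 3, and KRT8 from 0.08 to -0.07 without KO library 4 and -0.05 without WT library 3. At day 12, where 43 genes were called, DESeq2 called 77 (42 of the 43), the 8 libraries alone 10, limma-trend 12 and no filter on low counts 96; median-of-ratios scaling called the same 43. Leaving out 1 library gave 28 (without KO library 1) to 52 (without WT library 1), and 25 of the 43 were called in all 8 such fits. Day 12 replicate numbers were not taken as pairs, since number 3 correlated at 0.060 and not every library correlated best with its own number. Numbers 1, 2 and 4 correlated at 0.381, 0.343 and 0.252, so the main fit leaves any pairing of these unused. With the replicate block in the fit of 28 libraries 57 genes were called, and 27 with the block in the 8 libraries alone. The block of 28 libraries also used title numbers in groups where their pairing was not checked. At day 7, where 13 were called, DESeq2 called 29, no filter 34, the replicate block 18 and the block with those libraries alone 435; leaving out 1 library gave 2 to 11. For the difference between days, with 1 call, DESeq2 gave 8, no filter 11, limma-trend 0 (537 at an unadjusted p under 0.05), the replicate block 6, and leaving out 1 library 1 to 6. The unfiltered fit tests more genes and the separate fits have fewer libraries; the cause of the other shifts was not tested. A single count is worth 0.0533 to 0.0686 CPM, which limits the genes at or near 0 in KO.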

Other observations

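A single KO library sorted SOX17- CD34+ CD43- at day 12 has no replicate and enters no comparison. It held 16.7 CPM of RUNX1, 8.25 CPM of MYB, 0.705 CPM of GFI1, 1.06 CPM of KCNK17 and 83.9 CPM of VANGL2. H19 was at 0 and HSD17B7P2 at 0 CPM in it.

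The 2 WT libraries sorted SOX17+ CD34+ CD43+ at day 12 held 42.1 and 20.9 CPM of KCNK17, above the SOX17- CD43+ mean of 5.64 CPM and within the range of the WT SOX17+ CD43- libraries. RUNX1 was 278 and 445 CPM in them, and MYB averaged 254 CPM.

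Genes called lower in KO at day 7 and not at day 12 were DDC, ZNF439, CFP, RFLNB and NUP210, named after their values were seen. Their day 7 changes were -2.44 ± 0.45, -1.54 ± 0.27, -1.05 ± 0.21, -0.99 ± 0.18 and -0.98 ± 0.17, beside -2.97 ± 0.95, -1.12 ± 0.26, -0.89 ± 0.20, -0.67 ± 0.17 and -0.32 ± 0.15 at day 12. IL17RD, a feedback inhibitor of FGF signalling, was higher in KO at day 7 (1.12 ± 0.22).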
